A study of Canis lupus familiaris with 20 samples.

Results

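ACTG2 and TAGLN, both known as smooth muscle genes, were followed in the muscle of normal, dystrophic and escaper dogs. The members were all probes whose gene name in the scanner output is ACTG2 or TAGLN, which gave 1 probe of each gene, or 2 of the 42034 probes that are not controls, and 2 of 10277 genes with a symbol. Both genes were chosen by their log2 ratios in the 3 groups of these same dogs, so their differences between groups are given as descriptions, without a test. Both probes were among the 16008 tested probes, a probe being tested if 2 or more dogs had it well above background in their own channel on each of their arrays and if no dog lacked a value.

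ACTG2 encodes the gamma actin of smooth muscle, a thin filament protein best known from the smooth muscle of gut, bladder and other hollow organs. TAGLN encodes transgelin, also called SM22 alpha, a calponin-related protein that binds actin filaments in smooth muscle cells and in myofibroblasts. In skeletal muscle, smooth muscle cells lie mainly in the walls of the blood vessels, and the transcription factor SRF with its partner myocardin is known to drive both genes in such cells.

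The 10 dogs were all 2 years old and the sample was muscle, with no muscle named. Normal dogs (n = 4) served as the healthy group. Affected dogs (n = 4) carried the label of Duchenne muscular dystrophy, a disease in which muscle fibres lack the protein dystrophin, and escaper dogs (n = 2) carried the same disease label with the word escaper, which in dystrophic dogs stands for a mild course. Genotype, sex and treatment are not given in the labels. Each dog was hybridised on 2 arrays, in Cy5 on one and in Cy3 on the other, against a reference RNA from 1 normal individual. Every value below is the log2 ratio of dog over reference, averaged over the 2 arrays of the dog, so that the dog is the replicate. Each slide held 2 dogs of 1 group, and the escapers lay on a single slide, so slide and the escaper group cannot be told apart.

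The sequences of the probes are shown because 1 probe is the only evidence for each gene. The longest run of bases that either shares with any other probe of the array is 14. The ACTG2 probe lies at chr17:52213308-52213367 and the TAGLN probe at chr5:19396035-19396094, both on the minus strand in the coordinates of the array files, whose genome build is not given in the sources used here. The first line gives the part of the ACTG2 probe up to a stop codon, set in capitals, that ends the reading frame starting at base 2 after 8 codons. The remaining 32 bases of this probe follow that codon and are not printed. The next 2 lines give the TAGLN probe and 1 of the 2 probes of its paralog TAGLN2. In those, capitals mark the bases that match when the first 32 bases of the TAGLN probe are laid on the last 32 of the TAGLN2 probe without a gap.
ACTG2: ctccattgtccacaggaagtgcttcTAA
TAGLN: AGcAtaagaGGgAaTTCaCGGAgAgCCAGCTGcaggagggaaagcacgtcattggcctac
TAGLN2: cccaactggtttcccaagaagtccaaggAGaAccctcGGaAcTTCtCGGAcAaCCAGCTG

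The TAGLN and TAGLN2 probes matched at 21 of 32 aligned bases (65.6%). The TAGLN probe held no stop codon in the frame from base 1 nor in that from base 3. An open frame alone thus does not tell its coding frame. A probe cannot separate a gene from a near-identical copy, and the coding sequences of actins are much alike. Whether RNA of other actins binds the ACTG2 probe was not tested. Among all probes of the array, 21 shared a run of 12 or more bases with the ACTG2 probe and 14 with the TAGLN probe.

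Signal and quality differed between the probes. For ACTG2 the dog's signal stood well above background on 20 of 20 arrays, and for TAGLN on 19 of 20. Saturation of the dog's channel was met on 0 arrays for both. All counts of saturated arrays here and below cover the dog's channel, and saturation of the reference channel was not counted. The 2 arrays of a dog differed for TAGLN by 0.04 to 0.82 in log2 ratio (median 0.29), against a range of 1.29 over the 10 dogs. For ACTG2 the 2 arrays differed by 0.02 to 0.30 (median 0.19), against a range of 2.23 over the dogs. The spread between dogs was thus larger than the gap between dye-swapped arrays for ACTG2. For TAGLN the largest gap was smaller than the range over dogs but larger than the SD within any group.

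Markers of skeletal muscle fibres were present in the samples, with TTN (the giant sarcomere spring titin) and MYLPF (a fast fibre light chain) well above background on 20 arrays each, though MYLPF was saturated on 18 of them. MYH2 and ENO3 had no value in escaper 1 and were not tested. In 2 dogs the list of fibre markers stood apart. Its mean log2 ratio over 12 tested genes was −1.37 in affected 1 and −1.48 in escaper 2, and lay between 0.11 and 0.71 in the other 8 dogs. Other genes of the list were saturated too. Of the 8 arrays of normal dogs, saturation was met on 8 for CKM, MYL1 and TNNI2, on 7 for TNNT1 and on 6 for TNNT3. The list mean thus rests in part on saturated spots, whose ratios are compressed. The list genes named below for escaper against normal dogs, with ACTC1 and the relatives of TAGLN, number 31. With escaper 1 alone, the difference was more than 1.5 times smaller or of the opposite sign in 25 of them. In whole muscle, fewer cells of a type and less RNA per cell cannot be told apart.

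ACTG2 was lower in affected than in normal and escaper dogs. Its log2 ratio was 1.39, 0.58, 1.07 and 0.72 in normal dogs 1 to 4, which put every normal dog above the reference. It was −0.53, −0.41, 0.27 and −0.60 in affected dogs 1 to 4, below every normal dog. It was 0.88 in escaper 1 and 1.63 in escaper 2, and the latter was the highest value of any dog.

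The mean of ACTG2 was 0.94 ± 0.36 (SD, n = 4) in the normal group. It was −0.32 ± 0.40 (SD, n = 4) in the affected and 1.25 ± 0.53 (SD, n = 2) in the escaper group. The affected mean was thus 2.39-fold below the normal mean, a difference of −1.26 on the log2 scale, and 2.97-fold below the escaper mean, a difference of 1.57. Both differences were larger than 3 times the pooled SD of the groups compared (0.38 and 0.44). Affected and normal dogs did not overlap, as was also the case, in the same direction, for 7.42% of the 16008 tested probes. Escaper and affected dogs did not overlap either, with the escapers higher, as for 3.69% of tested probes.

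By size, 2.2% of tested probes had a larger difference of affected and normal dogs in either direction, and 0.456% a larger difference of escaper and affected dogs. Since ACTG2 was picked for these values, the shares describe where it lies among the probes and support nothing further. The escapers and the normal dogs overlapped, with a difference of 0.31 against a pooled SD of 0.41, and 46.3% of tested probes differed by more.

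In the order of the 10 dogs, escaper 2 led, followed by normal 1, normal 3, escaper 1, normal 4 and normal 2. The 4 affected dogs came after them, with affected 3 first, then affected 2, affected 1 and affected 4. The lowest normal dog and the highest affected dog were 0.31 apart, which is less than the SD within either group, so these neighbours did not differ beyond the spread. The means of escaper and normal dogs did not differ beyond it either.

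Affected 3 lay at 0.27 while the other affected dogs lay between −0.60 and −0.41. Leaving it out gave −1.45 for affected minus normal dogs. Without affected 1, a dog low in fibre markers, the same difference was −1.19. Without escaper 2 the escaper group was escaper 1 alone, which lay 1.20 above the affected mean and 0.06 below the normal mean.

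**Figure D1:**
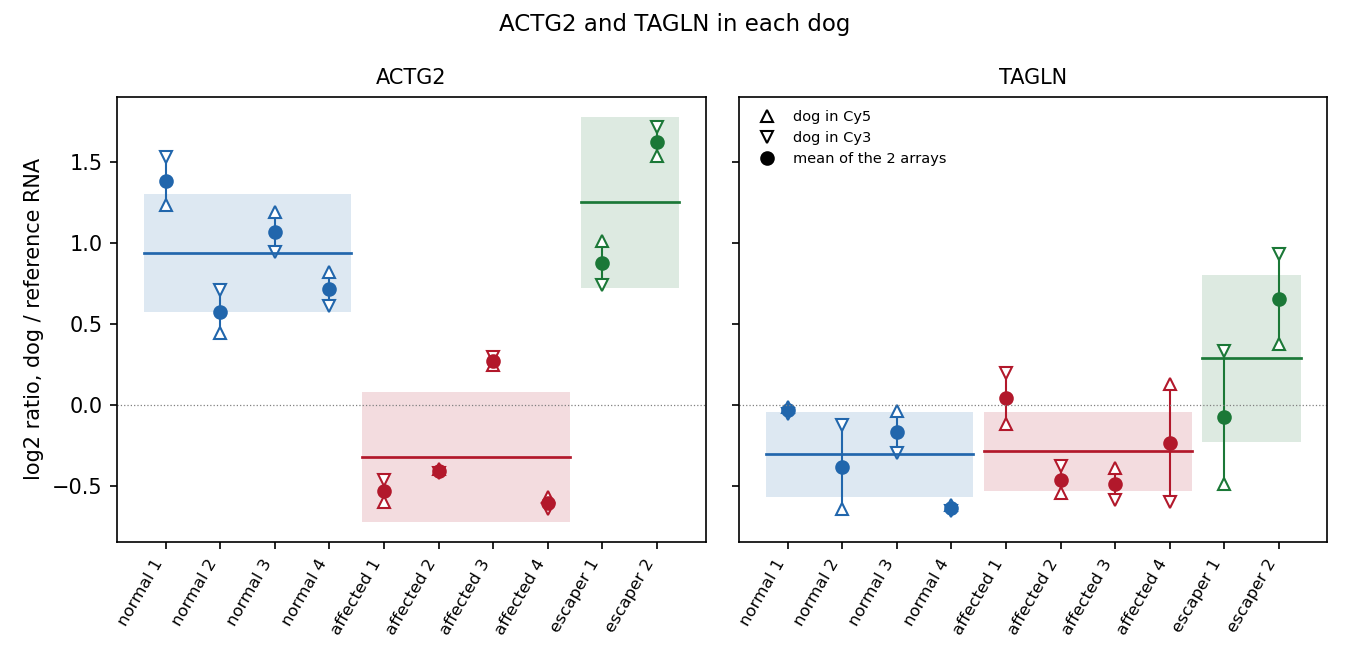
Log2 ratio of dog over reference RNA (vertical axis) for the ACTG2 and the TAGLN probe in each of the 10 dogs (horizontal axis). Triangles are the 2 arrays of a dog by dye, filled circles their mean, lines the group means and shaded boxes the mean ± SD. The 4 affected dogs lie at or below 0.27 for ACTG2 and the 6 others at or above 0.58, while the 3 groups overlap for TAGLN.

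TAGLN showed no such separation of the affected dogs. Its log2 ratio was −0.03, −0.38, −0.16 and −0.63 in normal dogs 1 to 4 and 0.04, −0.46, −0.49 and −0.23 in affected dogs 1 to 4. It was −0.07 in escaper 1 and 0.65 in escaper 2. Escaper 2 alone was clearly above the reference, and the ranges of the 3 groups overlapped.

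The mean of TAGLN was −0.30 ± 0.26 (SD, n = 4) in the normal group. It was −0.28 ± 0.25 (SD, n = 4) in the affected and 0.29 ± 0.52 (SD, n = 2) in the escaper group. Affected and normal means differed by 0.02, far less than the SD within either group. The escaper mean was 0.59 above the normal mean (1.51-fold) and 0.57 above the affected mean (1.49-fold), against pooled SDs of 0.34 and 0.33. Of the tested probes, 24% had a larger difference of escaper and normal dogs and 13.9% a larger difference of escaper and affected dogs.

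The higher escaper mean of TAGLN rested on escaper 2. With escaper 1 alone the differences were 0.23 from normal and 0.21 from affected dogs, and with escaper 2 alone 0.96 and 0.94. Escaper 1 itself had −0.49 with the dog in Cy5 and 0.34 with the dog in Cy3, the widest gap between arrays of any dog. Affected 4 came next, with 0.13 in Cy5, on an array far brighter over background than all others, and −0.60 in Cy3. On the arrays with the dog in Cy3 alone, both escapers lay above all other dogs, and on those with the dog in Cy5 alone the groups overlapped.

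Across the 10 dogs ACTG2 and TAGLN had a Pearson r of 0.442 and a Spearman rho of 0.394. All points share the reference RNA. Without escaper 2, the highest dog for both, r was 0.0863, and without the 2 dogs farthest from the median of ACTG2, affected 1 and affected 4, it was 0.75. The relation thus rests on which dogs are included. Affected 1 was second highest for TAGLN and second lowest for ACTG2.

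Other members of the actin family came next. The array files give a probe of ACTC1, the cardiac alpha actin that skeletal muscle makes in the foetus and during regeneration, and none under the symbols ACTA1, ACTA2, ACTB or ACTG1. The log2 ratio of ACTC1 was −3.70, −3.72, −4.07 and −3.87 in normal dogs 1 to 4, far below the reference in each. It was −3.19, 0.17, −0.52 and 0.81 in affected dogs 1 to 4, and −0.68 and 1.61 in escapers 1 and 2. Every dystrophic dog thus lay above every normal dog, with affected 1 nearest to them.

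ACTC1 did not pass the threshold of an adjusted p of 0.05 in limma's fit over all tested probes. Affected minus normal dogs gave 3.16 (SE 0.79, adjusted p = 0.23), escaper minus normal dogs 4.31 (SE 0.97, adjusted p = 0.189) and escaper minus affected dogs 1.15 (SE 0.97, adjusted p = 0.818). Without affected 1 the first became 4.00 with a limma adjusted p of 0.0358, which passed. In a limma fit of all arrays with the dog as a random block, the first passed with an adjusted p of 0.00544 and the second with 0.00433. That fit counts arrays, with a single correlation of 0.537 between the arrays of a dog for all probes. It is looser than the fit over dogs where the arrays of a dog agree more closely than that. With slide as a random block in limma the second passed (adjusted p = 0.0452) and the first did not (0.0586). Each slide held dogs of a single group, so this block cannot take slide effects out of group differences. Its correlation was negative (−0.271), which narrows the SE of group means. ACTC1 lay lowest in normal dogs, whereas ACTG2 lay lowest in affected dogs.

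Besides these, 3 actin probes without a symbol were looked at after their values were seen. The probe on chromosome 26, which the files describe as a fragment of cardiac actin, was well above background on 20 of 20 arrays. Its log2 ratio ran from −0.54 to −0.07 in normal and from −0.60 to 0.07 in affected dogs, and was 0.43 and 2.03 in the escapers. Both escapers lay above all other dogs, and the means of affected and normal dogs differed by 0.04. The probe on chromosome 9, also well above background on 20 of 20 arrays, ran from −2.11 to −1.24 in normal and from −1.14 to −0.09 in affected dogs, and was −1.29 and 1.47 in escapers 1 and 2. Affected dogs thus lay above all normal dogs there, and escaper 1 within the normal range. The probe on chromosome 6 is not described further, its signal being well above background on 1 of 20 arrays. The actins these probes measure are not named here.

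The relatives of TAGLN were TAGLN2, transgelin 2 of many non-muscle cells, TAGLN3, a neuronal form, and the calponins CNN1 of smooth muscle and CNN3 of many tissues. TAGLN2 lay between −1.29 and −0.83 in normal dogs and between −1.26 and −0.10 in affected dogs. It was −1.27 in escaper 1 and 2.04 in escaper 2, so the 2 escapers held nearly the lowest and the highest value of all dogs. The difference of escaper and normal dogs was 1.42 (SE 0.72, limma adjusted p = 0.311) and was −0.24 with escaper 1 alone. Its other probe gave 0.50.

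CNN3 ran from −0.76 to −0.37 in normal and from −0.55 to 0.56 in affected dogs, with −0.44 in escaper 1 and 0.81 in escaper 2. Its difference of escaper and normal dogs was 0.73 (SE 0.37, limma adjusted p = 0.311), 0.25 with its other probe and 0.11 with escaper 1 alone. Neither TAGLN3 nor CNN1 was tested, their signals standing well above background on 7 and 2 of 20 arrays. For TAGLN, TAGLN2 and CNN3 alike, escaper 2 was the highest dog.

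**Figure D2:**
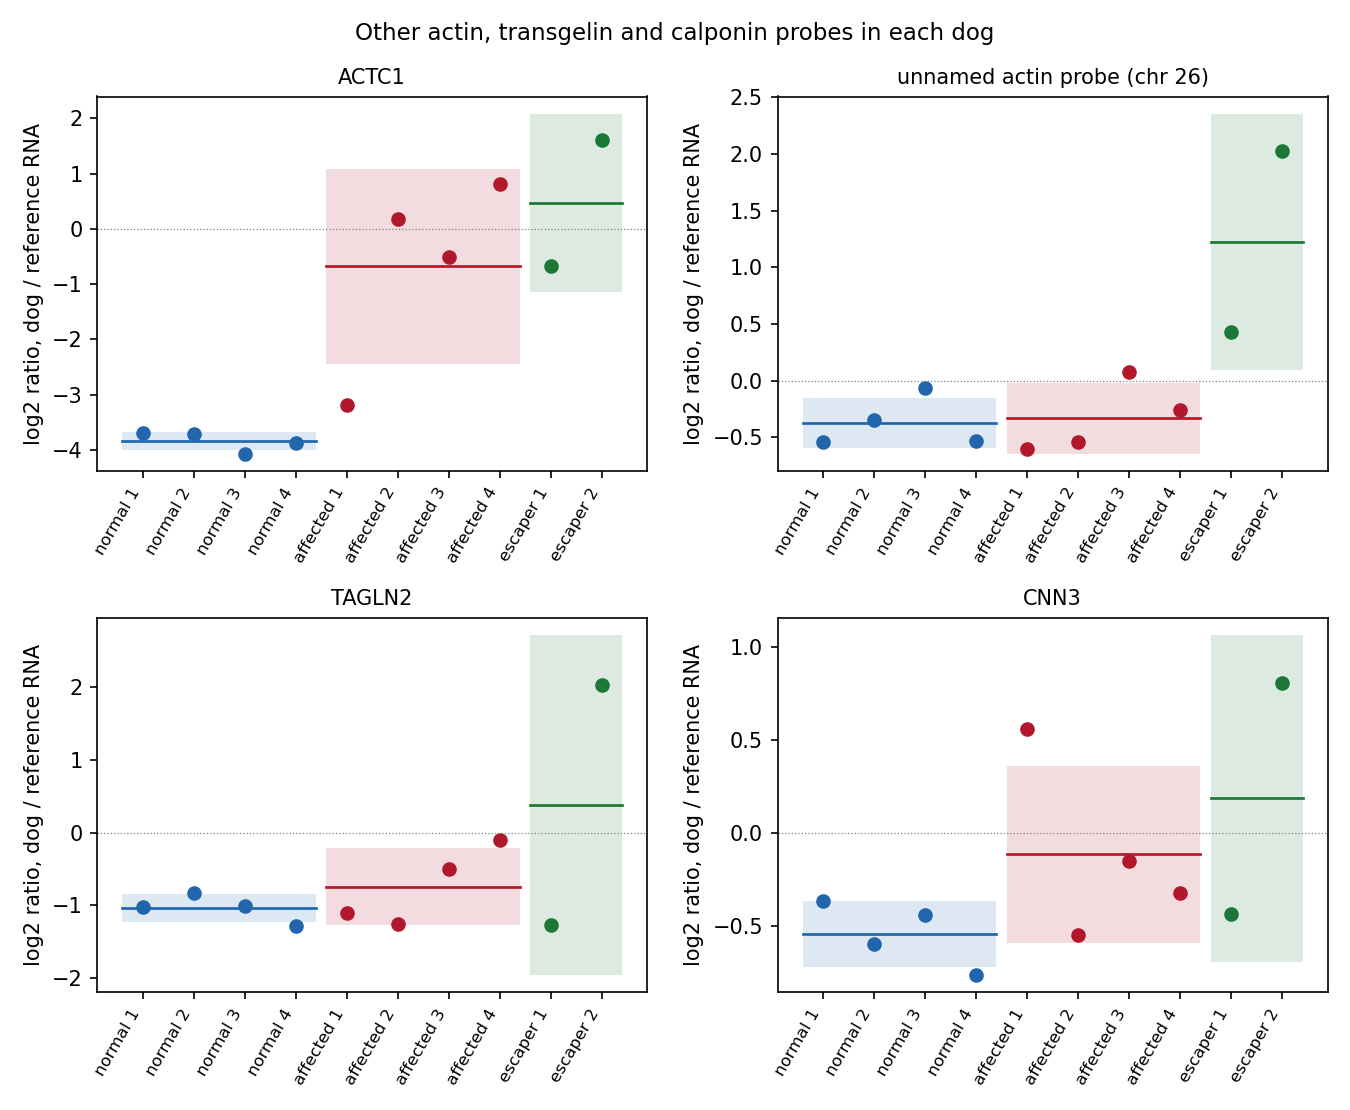
Log2 ratio of dog over reference RNA (vertical axes, each panel with its own scale) in each dog for ACTC1, the unnamed actin probe on chromosome 26, TAGLN2 and CNN3. Circles are dogs, lines group means and boxes the mean ± SD. ACTC1 is below −3.6 in the 4 normal dogs, and escaper 2 is the highest dog in all 4 panels.

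The wider smooth muscle programme was read from a list of 30 contractile and adhesion genes without ACTG2 and TAGLN. Of these, 25 had a probe and 21 were tested. The most specific markers were at the limit of detection. MYH11, the smooth muscle myosin heavy chain, and CNN1 were well above background on 2 of 20 arrays each, MYLK, the kinase of the myosin light chain, on 1, and KCNMB1, a subunit of the smooth muscle potassium channel, on 1. MYOCD, which encodes myocardin, was well above background on 0 of 20 arrays. ACTA2, the vascular smooth muscle actin, has no probe under its symbol. The tested members are therefore mostly genes that other cells of muscle make as well.

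None of the 21 tested genes passed the threshold in any of the 3 comparisons by limma's adjusted p. At an unadjusted p under 0.05, limma gave 0 for affected against normal dogs, 3 for escaper against normal dogs and 1 for escaper against affected dogs, all higher in the escapers. Over all 16008 probes, 0.0187% passed the adjusted threshold for affected against normal dogs and 0% in both comparisons of the escapers. At an unadjusted p under 0.05 the shares were 12.4%, 18.4% and 5.22% of all tested probes in either direction. By direction, 6.02% of all tested genes were higher and 7.02% lower in affected than in normal dogs at that p. Likewise 9.82% were higher in escaper than in normal dogs and 3.08% higher in escaper than in affected dogs.

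Between affected and normal dogs, 16 of the 21 genes had a difference above 0, with a median of 0.07, beside a median of 0.05 and 56.2% above 0 over all 6129 tested genes. With median centring, and also with Agilent's processed signals, 13 of 21 were above 0. The smooth muscle genes as a list thus did not share the lower value of ACTG2 in affected dogs, and 0 of them had affected dogs below every normal dog, as 7.24% of all genes had. SMTN, which encodes smoothelin of contractile smooth muscle, differed by −0.13 (SE 0.25). TPM2, a tropomyosin of muscle, differed by −0.53 (SE 0.71), with affected 1 at −2.99 and the other 9 dogs between −0.72 and 0.97. This TPM2 probe was saturated on 6 of 20 arrays, and its other probe gave −0.03. SMTN and TPM2 fall outside the naming rule and were picked after their values were seen.

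Between escaper and normal dogs, 15 of the 21 genes had a difference above 0, with a median of 0.29 beside 0.0047 and 50.4% above 0 over all genes. Between escaper and affected dogs it was 15 of 21 as well, with a median of 0.33 beside −0.03 and 46% above 0. Both medians moved with the scaling. With median centring the first was 0.10 (13 of 21 genes) beside −0.17 over all genes, and the second 0.05 (12 of 21) beside −0.21. With processed signals the first was 0.54 and the second 0.43. In 5 genes both escapers lay above all normal dogs (FLNA, MYL6, FERMT2, MYL9 and ZYX), beside 14.7% of all genes in that direction. FLNA, the actin cross-linker filamin A, had the smallest p. It lay between −0.89 and −0.55 in normal dogs, at −0.40 in escaper 1 and at 0.91 in escaper 2, a difference of 1.01 (SE 0.31, limma adjusted p = 0.195) that was 0.36 with escaper 1 alone.

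MYL6, the smooth and non-muscle light chain of myosin, was 0.90 and 1.01 in the escapers and between −0.91 and −0.15 in normal dogs, a difference of 1.33 (SE 0.48, limma adjusted p = 0.218). It is the 1 gene of the 5 in which both escapers stood at nearly the same height. MYL9, the regulatory light chain of smooth muscle myosin, differed by 1.29 (SE 0.64), by 0.58 with its other probe and by 0.66 with escaper 1 alone. FERMT2, the integrin partner kindlin 2, differed by 0.50 (SE 0.22), and by 0.31 with escaper 1 alone. ZYX, the focal adhesion protein zyxin, differed by 0.30 (SE 0.21), by 0.19 with escaper 1 alone, and was well above background on 6 of 20 arrays, 1 of them of a normal dog.

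Of the other named genes, CALD1 (caldesmon) differed by 1.44 (SE 0.68), TPM1 (a tropomyosin) by 1.09 (SE 0.53) and TLN1 (talin 1) by 0.60 (SE 0.33), with limma adjusted p of 0.29, 0.298 and 0.353. In these 3 the escapers overlapped the normal dogs, and with escaper 1 alone the differences were 0.14, 0.04 and 0.04. DES, which encodes desmin of skeletal as well as smooth muscle, differed by −0.81 (SE 0.62), with 0.66 in escaper 1 and −2.03 in escaper 2. In the dog's channel its probe was saturated on 9 of 20 arrays, none of an escaper, and the reference channel was not counted. DES was picked after its values were seen.

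Which escaper was left out decided the count. Without escaper 1, 7 of the 21 genes passed limma's adjusted threshold against normal dogs, 6 of them higher (CALD1, TPM1, TPM4, FLNA, TLN1 and TES) and DES lower, beside 24.5% of all tested probes in either direction. Escaper 2 is then the only escaper and is taken to vary as the other groups do. Without escaper 2, 0 of the 21 passed. Against affected dogs the same counts were 6, beside 11% of all probes, and 0.

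**Figure D3:**
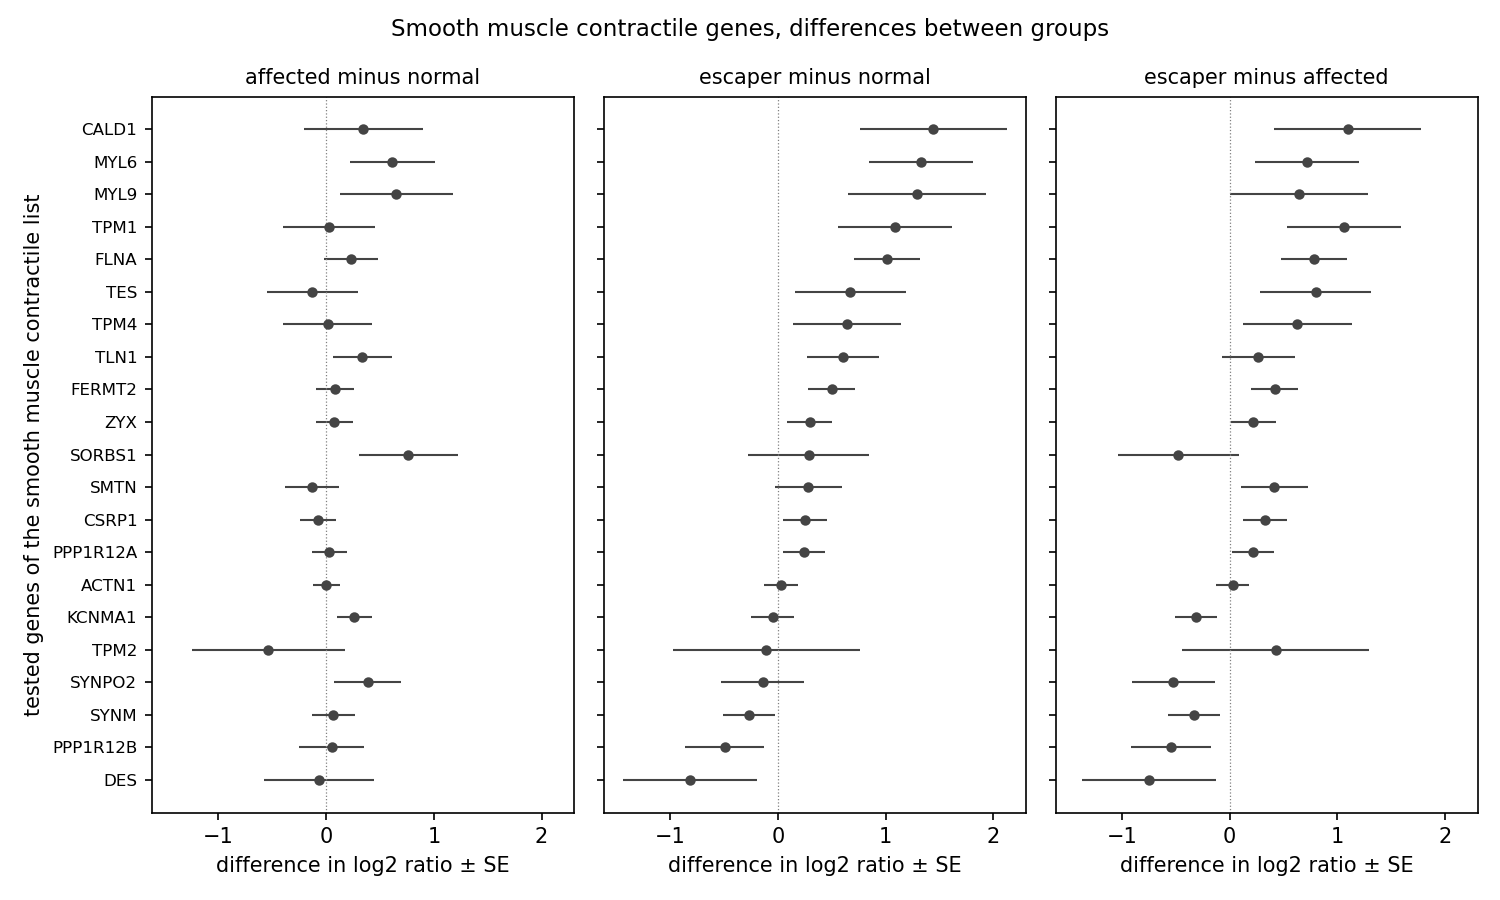
Difference in log2 ratio (horizontal axis) for the 21 tested genes of the smooth muscle contractile list, ordered by escaper minus normal, in the 3 comparisons. Points are limma's estimates and bars their SE. Estimates for affected minus normal dogs lie around a median of 0.07, and those of escaper minus normal dogs run from −0.81 for DES to 1.44 for CALD1. The DES probe was saturated in the dog's channel on 9 of 20 arrays.

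Regulators of both genes were read from a list of 18 symbols around SRF, of which 12 had a probe and 6 were tested. None passed limma's adjusted threshold in any comparison, and at an unadjusted p under 0.05 limma gave 1 gene in each (KLF4, RHOA and KLF4 again). Of all tested genes, 7.02% were lower in affected than in normal dogs at that p. Likewise 9.82% were higher in escaper than in normal dogs and 3.08% higher in escaper than in affected dogs. KLF4, a transcription factor known to repress smooth muscle genes in cultured smooth muscle cells, was the 1 tested regulator with affected dogs below every normal dog, as for 7.24% of all genes. It lay at 0.66, 0.50, 0.74 and 0.84 in normal dogs 1 to 4 and at −1.04, −0.29, 0.03 and −0.36 in affected dogs 1 to 4. It was 0.22 in escaper 1 and 0.83 in escaper 2. Affected minus normal dogs gave −1.10 (SE 0.23, limma adjusted p = 0.179), and −0.89 without affected 1. The limma adjusted p passed the threshold with slide as a random block (0.0415) and with all arrays and the dog as a random block (0.0118). As said for ACTC1, these fits can be looser than the fit over dogs and are no stricter check.

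RHOA, the GTPase that feeds actin assembly into SRF, differed by 0.88 (SE 0.39) between escaper and normal dogs, with an adjusted p of 0.271 in limma, and by 0.36 with escaper 1 alone. ROCK2, a kinase downstream of RHOA, differed by −0.64 (SE 0.29), and by −0.23 with escaper 1 alone, and TGFBR2, a receptor of TGF-beta, by 1.17 (SE 0.64). The 4 probes of TGFBR2 that were tested gave differences from 0.11 to 1.17, and the brightest gave −0.15 with escaper 1 alone. SRF itself differed by −0.18 between affected and normal dogs and by −0.02 between escaper and normal dogs.

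Lists for the cells of vessel walls and of scar tissue were set beside the 2 genes. No gene of these lists passed limma's adjusted threshold in any comparison. Their part in the values of ACTG2 and TAGLN was not tested.

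Endothelial markers lay on the same side as ACTG2. Between affected and normal dogs 8 of 9 tested genes had a difference below 0 (median −0.20). Of these, 1 was lower at an unadjusted p under 0.05 in limma, beside 7.02% of all tested genes. Between escaper and affected dogs 9 of 9 were above 0 (median 0.51). Of these, 4 were higher at an unadjusted p under 0.05 in limma, beside 3.08% of all tested genes. In 3 the dogs did not overlap (KDR, ESAM and EGFL7), beside 3.18% of all genes. KDR, a receptor of VEGF, lay between 1.04 and 1.40 in normal and between −0.15 and 0.74 in affected dogs, and was 0.84 and 1.71 in the escapers. KDR and EGFL7 were picked after their values were seen.

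The mean of the 9 endothelial genes was −0.18 to 0.10 in normal dogs, −0.41 to −0.09 in affected dogs and −0.21 and 0.81 in escapers 1 and 2. Escaper 1 thus lay within the affected range on this list, unlike its ACTG2 value. CLDN5, a tight junction protein of vessels, differed by 0.74 (SE 0.28) between escaper and normal dogs, EMCN, an endothelial sialoprotein, by 0.54 (SE 0.44), and ESAM, an adhesion molecule, by 0.20 (SE 0.16). With Agilent's processed signals ESAM had the opposite sign (−0.10), and with escaper 1 alone EMCN had it (−0.48), while CLDN5 was 0.19. Their limma adjusted p were 0.228, 0.525 and 0.536. The r of ACTG2 over the 10 dogs was above 0 with 9 of 9 endothelial genes (median 0.567) and with 7 of 8 pericyte and mural cell genes (median 0.439). That of TAGLN was above 0 with 8 of 9 (median 0.515) and 6 of 8 (median 0.423). Over all tested genes, the 25th and 75th percentiles of r were −0.297 and 0.232 for ACTG2 and −0.381 and 0.479 for TAGLN. Both ACTG2 medians lay above its 75th percentile, as did the endothelial but not the pericyte and mural cell median of TAGLN.

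Pericyte and mural cell markers, which cover the cells that wrap small vessels, had 10 of 12 genes on the array and 8 tested. Their mean was 0.04 to 0.21 in normal, −0.43 to 0.11 in affected and 0.08 to 0.24 in escaper dogs, with affected 1 lowest. HIGD1B, a mural cell gene, lay at −1.15, −0.02, 0.45 and −0.64 in affected dogs 1 to 4. It was between 0.15 and 0.55 in normal dogs and was 0.42 and 1.47 in the escapers. Between escaper and normal dogs HIGD1B differed by 0.68 (SE 0.42), ABCC9, a potassium channel subunit, by −0.77 (SE 0.42) and ANPEP, an aminopeptidase, by 0.31 (SE 0.21). With escaper 1 alone these were 0.16, −0.13 and −0.0037.

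Fibroblast and macrophage markers were highest in escaper 2, as TAGLN was. The mean of 14 fibroblast and myofibroblast genes was −1.33 to −0.87 in normal dogs, −0.71 to 0.62 in affected dogs, −0.64 in escaper 1 and 1.61 in escaper 2. That of 8 macrophage genes was −1.57 to −1.21 in normal dogs, −1.06 to −0.07 in affected dogs, −1.10 in escaper 1 and 0.89 in escaper 2. Affected dogs lay above normal dogs on both lists, whereas TAGLN differed by 0.02 between these groups.

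Among fibroblast genes the smallest p in escaper against normal dogs belonged to S100A4 (3.11, SE 0.87), COL1A2 (3.43, SE 1.08) and COL3A1 (3.71, SE 1.21), the latter 2 being fibrillar collagens. Among macrophage genes it belonged to LGALS3 (2.55, SE 0.58), ITGAM (1.19, SE 0.35) and C1QB (1.63, SE 0.59). Limma's adjusted p of these 6 ran from 0.189 to 0.218. With escaper 1 alone the fibroblast genes gave 1.28, 2.24 and 2.48 and the macrophage genes 1.27, 0.60 and 0.38, in the same order. ITGAM was well above background on 1 and COL3A1 on 3 of the 8 arrays of normal dogs, so their differences rest on dim spots in that group. The r of TAGLN was above 0 with 13 of 14 fibroblast genes (median 0.609) and with 8 of 8 macrophage genes (median 0.571). That of ACTG2 was above 0 with 9 of 14 (median 0.0843) and 5 of 8 (median 0.109). Over all tested genes the 75th and 95th percentiles of r were 0.479 and 0.756 for TAGLN and 0.232 and 0.565 for ACTG2.

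Fibre markers ran opposite to TAGLN. Its r was below 0 with 10 of 12 of them (median −0.593), beside a 25th percentile of −0.381 and a 5th of −0.723 over all genes. The 2 dogs lowest in fibre markers, affected 1 and escaper 2, were the 2 highest for TAGLN. Several of these markers were saturated on many arrays, which compresses their ratios. For ACTG2 the median r with fibre markers was 0.139, and the same 2 dogs were its second lowest and its highest. Between escaper and normal dogs PYGM, the glycogen phosphorylase of muscle, differed by −2.53 (SE 0.77) and TTN by −1.63 (SE 0.74), with limma adjusted p of 0.196 and 0.278. With escaper 1 alone PYGM differed by −1.46 and TTN by 0.09. The other TTN probe gave 1.59, the opposite sign. MYLPF differed by 0.89 (SE 0.37) on its mostly saturated probe and had the opposite sign under median centring.

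Genes of immature and regenerating fibres had 8 tested members, and all 8 had a difference above 0 from normal in affected and in escaper dogs (medians 0.92 and 1.08). TNNT2, the cardiac troponin T also made by young fibres, differed by 3.82 (SE 0.70), and H19, a foetal non-coding RNA, by 0.79 (SE 0.23) between escaper and normal dogs. Neither passed, with limma adjusted p of 0.179 and 0.191, and with escaper 1 alone they gave 3.03 and 0.56. The list mean was −2.07 to −1.83 in normal dogs, so the reference RNA lay far above the normal dogs on this mean. By gene, the mean of the normal dogs ran from −3.99 for MYH8 to −0.49 for CDH15. For ACTG2 the reference lay below all 4 normal dogs.

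**Figure D4:**
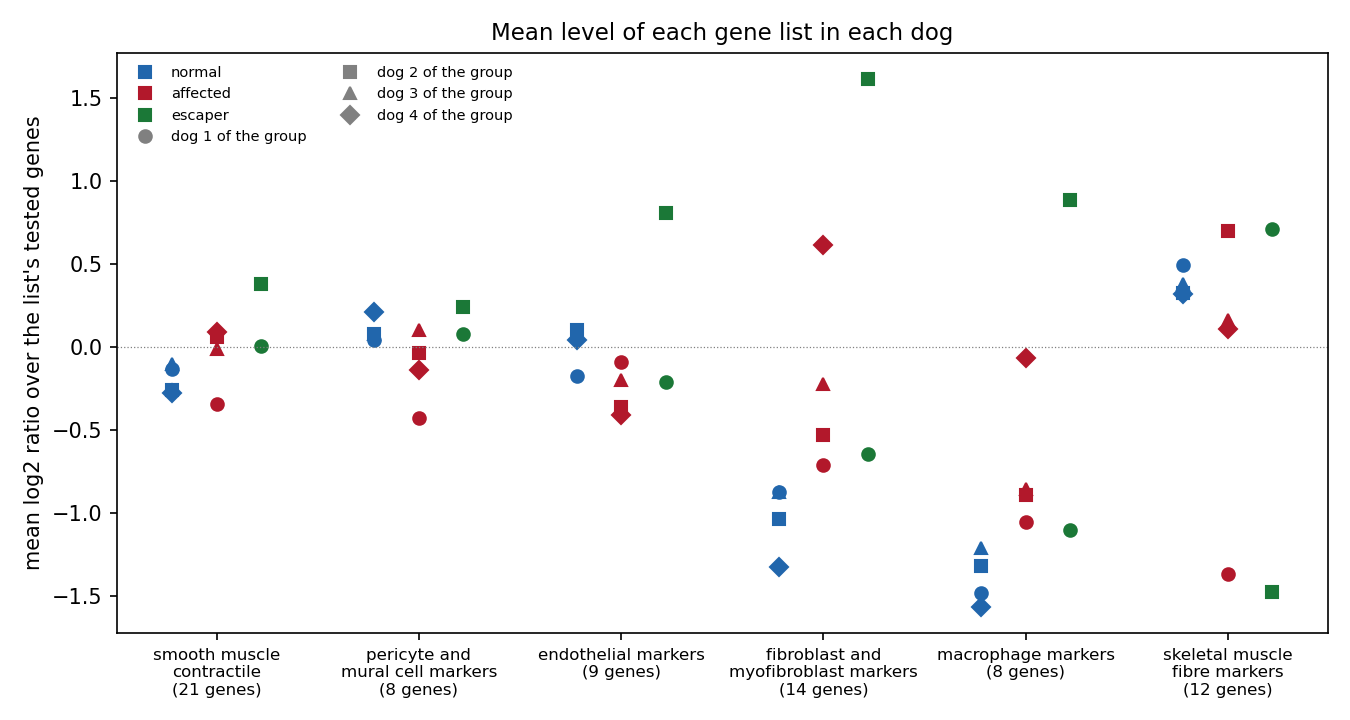
Mean log2 ratio over the tested genes of 6 lists (vertical axis) in each dog, coloured by group and shaped by the dog's number, which marks no pairing between groups. Escaper 2 is the highest dog on the smooth muscle, pericyte, endothelial, fibroblast and macrophage lists and the lowest on fibre markers, with affected 1 next to it at −1.37. Several fibre markers were saturated in the dog's channel on most arrays of normal dogs.

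The genes whose 10 values were most like those of each member were named by Pearson r among 6127 tested genes. For ACTG2 they were ATP4A (r = 0.954), a subunit of the gastric proton pump, VTN (0.915), the adhesion protein vitronectin, KLF4 (0.885), KCNA7 (0.881), a potassium channel, and RAMP2 (0.876), a partner of the adrenomedullin receptor. The 99th percentile of r over all genes was 0.752. ATP4A had a signal well above background on 11 of 20 arrays, and its values spanned only −0.34 to 0.21. ATP4A entered the tests through normal 3 and both escapers, which lay above every affected dog for ACTG2. Its r thus rests on dim spots in the other dogs. In RAMP2 the 4 affected dogs lay between −0.26 and 0.27, and the normal dogs between 0.31 and 0.58. Without the 2 dogs farthest from the median of ACTG2, r of the 5 genes ran from 0.748 to 0.906.

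For TAGLN they were PLEKHA1 (r = 0.951), an adaptor that binds membrane lipids, CYP27A1 (0.944), a sterol hydroxylase, FBXO18 (0.943), a DNA helicase, SLC20A1 (0.939), a phosphate transporter, and CSRP1 (0.933), a LIM protein of smooth muscle. The 99th percentile of r was 0.838. CSRP1 is also on the smooth muscle list, where it had the highest r with TAGLN, and PPP1R12B, a subunit of myosin phosphatase, had the lowest at −0.829. Over the 21 smooth muscle genes the median r was 0.38 with TAGLN and 0.162 with ACTG2. Both lay below the 75th percentile over all genes (0.479 and 0.232). Escaper 2 was the highest dog in all 5 genes most like TAGLN, and without the 2 farthest dogs r ran from 0.784 to 0.931. PLEKHA1 had a signal well above background on 9 of 20 arrays, SLC20A1 on 8. PLEKHA1 entered the tests through affected 1 and escaper 2, the 2 highest dogs for TAGLN, and SLC20A1 through these and affected 4, so their r rests on dim spots in the other dogs. No gene was among the 5 for both members.

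**Figure D5:**
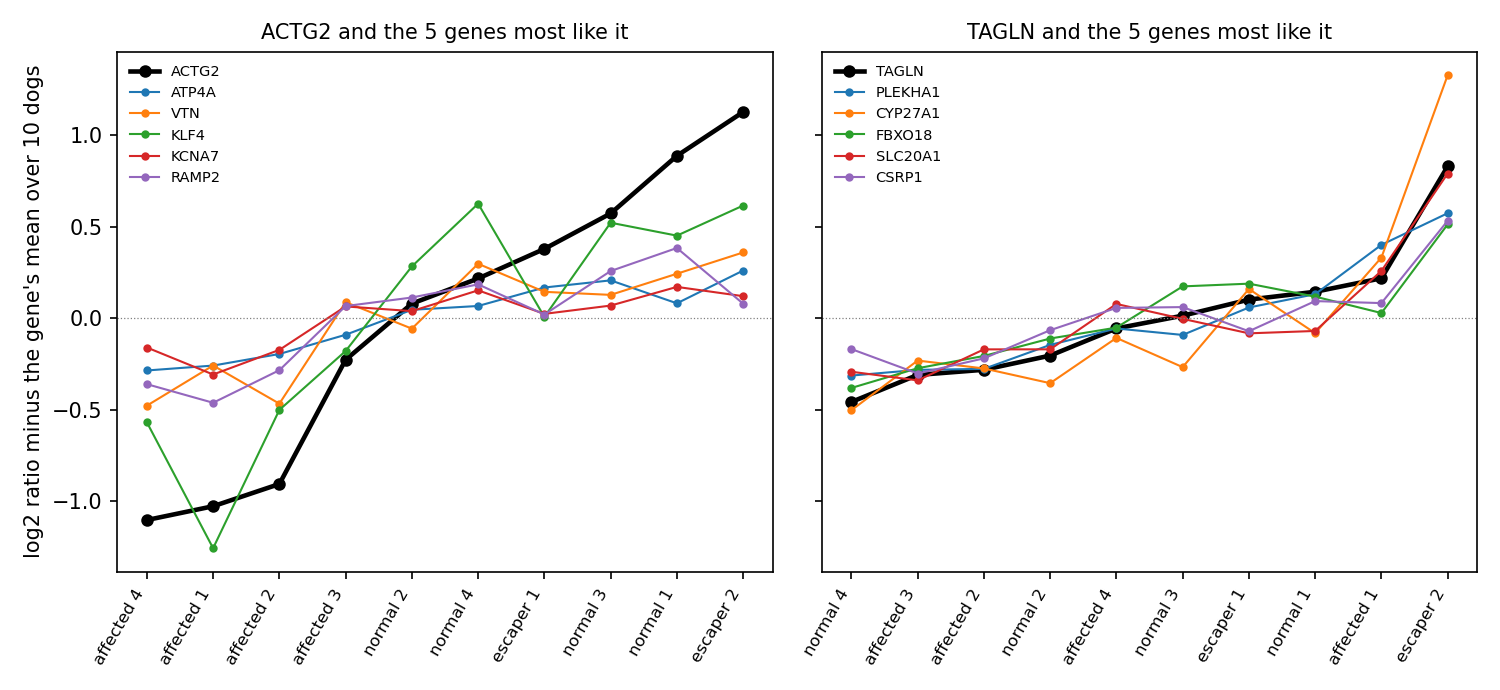
Log2 ratio minus the gene's mean over the 10 dogs (vertical axis) for ACTG2 and for TAGLN, thick black lines, with the 5 genes of highest Pearson r, in dogs ordered by the member's value. ACTG2 spans 2.23 from affected 4 to escaper 2, more than any of the 5 genes beside it, and the widest step between neighbours for TAGLN is that to escaper 2.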

How the data were processed

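Muscle RNA of 10 dogs was measured on 20 canine arrays of 2 colours, 2 dye-swapped arrays a dog, against a common reference. Per the file headers, spots were quantified with Agilent Feature Extraction 9.5.3.1, and the authors deposited scanner output with a mean intensity and a local background intensity per spot, and intensities already processed by that software. The deposited value table holds log2 ratios that equalled the processed dog over reference ratios (r = 1) with dyes turned. Its column medians ran from −0.165 to 0.246, and why it is uncentred is unknown.

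Mean and background signals were corrected with normexp (offset 50) and loess-normalised within arrays in limma 3.58.1 (R 4.3.3), with control spots at no weight. Control spots and outlier spots were left out, saturated spots kept, and arrays averaged per dog. Arrays had 30.5% to 60.2% of probes well above background, which limits precision. The highest share was that of affected 4 in Cy5. Its median signal over background was 5.28, beside 1.67 to 2.70 on all other arrays. One limma fit of the 3 groups gave Benjamini-Hochberg adjusted p over 16008 probes. A probe needed 2 dogs well above background on each of their arrays. A gene was its brightest tested probe. Of 42034 probes, 12160 had a symbol, updated with RefSeq names of the assembly UU_Cfam_GSD_1.0. The fit was checked on simulated data with independent noise of the normal dogs' spread in all 3 groups. In the dogs themselves the spread could differ by group (for TAGLN2 an SD of 2.34 in escaper and 0.19 in normal dogs). The check does not cover such unequal spread.

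The members and gene lists were chosen with earlier results of these data known. The genes named are the 2 members, their families, the 8 genes of the smooth muscle list and the 3 of each other list with the smallest p in escaper minus normal dogs, and the 5 most like each member, with exceptions said in the text. Other background corrections, centring, filters, dyes, blocks and omitted dogs served as alternatives.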

Additional observations from a re-analysis of the deposited data

Results flagged for a closer look

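In 8 of 86 groups of 4 dogs, over 43 named genes, 1 dog lay far from the other 3 by Dixon's ratio of gap to range, above its 95% critical value for 4 samples. Chance marks about 1 in 20 groups. Neither ACTG2 nor TAGLN was among them, the highest ratio being 0.775 for affected 3 in ACTG2. Normal 4 stood apart for H19 (ratio 0.896), MYL9 (0.836) and HIGD1B (0.88). It was −3.09 for H19 beside −2.45 to −2.38 in the other normal dogs, −1.55 for MYL9 beside −0.65 to −0.47, and 0.55 for HIGD1B beside 0.15 to 0.20. Normal 1 stood apart for ITGAM (ratio 0.892) and normal 2 for MYL6 (0.853), with −0.91 beside −0.27 to −0.15. Affected 2 stood apart for EMCN (ratio 0.841) and TGFBR2 (0.896), and affected 1 for RHOA (0.842), with 0.63 beside −0.65 to −0.45.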

How the results depend on the processing

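The ACTG2 difference of affected and normal dogs stayed below 0 under 6 alternatives, from −1.55 with Agilent's processed signals to −1.24 with median centring. That of escaper and affected dogs ran from 1.27 to 1.80, with no overlap in either comparison. The deposited value table holds the same ratios as the processed signals, so here and below their equal values are not separate checks. The ACTG2 difference of escaper and normal dogs, 0.31, was 0.03 with median centring. That centring moved the median of all genes by −0.17 in this comparison, and relative to it ACTG2 stood at 0.20. The TAGLN difference of escaper and normal dogs became 1.05 with processed signals and 1.05 with the deposited value table. That of escaper and affected dogs became 0.17 with the dog in Cy5 and 0.97 with the dog in Cy3. Leaving out 1 dog gave 0.23 to 0.96 for the former and 0.21 to 0.94 for the latter. Affected minus normal TAGLN changed sign, within −0.09 to 0.24. Both genes have a single probe, so no other probe could be tried.

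Over all probes, the 3 called for affected against normal dogs became 31 with processed signals, 31 with the deposited table, 7 with the dog in Cy5, 1 in Cy3, 114 with slide as a random block, 313 with all arrays and the dog as a random block and 113 in a fit of the 2 groups compared. Leaving out a dog gave 0 to 113. For escaper against normal dogs, 0 became 4 with processed signals, 4 with the deposited table, 1 without a filter on dim probes, 522 with the slide block and 984 with the dog block. Leaving out a dog gave 0 to 3920, and for escaper against affected dogs 0 to 1755. The slide block used a consensus correlation of −0.271, and a negative value narrows the SE of group means. The dog block used a single correlation of 0.537 for all probes and counted arrays rather than dogs. Neither block is thus a stricter check than the fit over dogs. Of the smooth muscle genes, 1 (FLNA, adjusted p = 0.038) was called for escaper against normal dogs with the dog block, and leaving out a dog gave 0 to 7 there and 0 to 6 against affected dogs. Without escaper 1, 22 of the 31 named genes of the lists passed in escaper minus normal dogs, and without escaper 2, 0. With the dog block 7 passed (TNNT2, ACTC1, C1QB, COL1A2, COL3A1, FLNA and PYGM) and with the slide block 4 (TNNT2, ACTC1, LGALS3 and S100A4). MYLPF turned to −0.36 with median centring, and ESAM to −0.10 with processed signals and −0.10 with the deposited table. Leaving out a dog gave −3.35 to 0.0931 for TTN, −0.48 to 1.57 for EMCN, −0.0015 to 0.40 for ESAM, −0.15 to 2.49 for TGFBR2, −0.24 to 3.07 for TAGLN2 and −0.0037 to 0.61 for ANPEP, each turning with escaper 1 alone. The causes were not tested. No paired analysis was possible because the labels carry no replicate numbers that groups share. Probes near background, such as ZYX and ATP4A, have the least certain values.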
